A study of Homo sapiens with 54 samples.

Results

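The interferon-stimulated genes analyzed here are 41 genes that cells switch on in response to type I and type III interferons. They were taken as a list of symbols, and all 41 were found among the 55906 gene rows of each of 4 tables of transcript abundance, one table per cell line. The RNA-sequencing comprised 54 libraries in 18 groups of 3. A549 and NCI-H23, both lung cancer cell lines, stably expressed Zim3-dCas9, a nuclease-dead Cas9 fused to a repressor domain that silences the promoter a guide directs it to (CRISPRi). They received control guides (Control KD) or guides to *TRA2A* (*TRA2A* KD), *TRA2B* (*TRA2B* KD) or both (*TRA2A/B* DKD), and were collected on day 5. LN229 and LN319, both glioma cell lines, were collected on day 7 after delivery of Cas9 with guides, as transduced populations. All of their groups also carried an overexpression vector. With luciferase (Luc), the groups were Control KO, *TRA2A* KO and *TRA2B* KO, and with overexpressed *TRA2B* (TRA2B-OE) they were Control KO and *TRA2A* KO. *TRA2A* and *TRA2B* are paralogs that encode RNA-binding proteins of splicing, and the question for the listed genes is how far loss of either or both paralogs moves them in each line.

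Interferons bind receptors at the cell surface that signal through the kinases JAK1 and TYK2 to STAT proteins, among them STAT2, which acts with IRF9 in the complex ISGF3. ISGF3 binds the interferon-stimulated response element (ISRE) in the promoters of these genes, and their products block viruses at entry, replication, translation and release. Many cancer cell lines keep part of this program on without added interferon, and the labels name no added interferon here. The series is bulk RNA, in which a lower level in every cell and a smaller share of cells that express a gene cannot be told apart.

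Promoter sequence was available for 32 of the 41 genes in the RefSeq table (GRCh38.p14), and the 250 bases before each start were searched on both strands. A single window per gene was kept, so a motif at another start or further upstream would be missed. The ISRE-type motif GAAANNGAAA, read as TTTCNNTTTC on the other strand, was present in 18 of 32 (56.2%) of these windows and in 839 of all 27305 windows (3.07%). The GAS-type motif TTCNNNGAA, a letter pattern associated with interferon gamma signaling, was present in 8 of 32 (25.0%) and in 1850 of all windows (6.78%). The 2 motifs can overlap. Stretches of 10 of these 18 members are shown with the motif letters in capitals, because they are the sequence feature these genes share, and each is read in the direction of transcription. A match describes letters and does not show a binding site.
IFI27, chr14:94110616-94110662, plus strand: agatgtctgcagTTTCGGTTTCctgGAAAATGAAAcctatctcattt
IFI6, chr1:27672264-27672297, minus strand: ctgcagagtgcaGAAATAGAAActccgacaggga
IFI44, chr1:78649759-78649788, plus strand: gggcacactgagTTTCAGTTTCctttctct
IFI44L, chr1:78620363-78620396, plus strand: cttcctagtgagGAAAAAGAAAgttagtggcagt
IFIT1, chr10:89392495-89392541, plus strand: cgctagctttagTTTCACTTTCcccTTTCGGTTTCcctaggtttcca
ISG15, chr1:1013372-1013411, plus strand: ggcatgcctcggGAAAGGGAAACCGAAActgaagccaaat
IFITM1, chr11:313988-314021, plus strand: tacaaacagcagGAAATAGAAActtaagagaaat
IFITM3, chr11:320874-320924, minus strand: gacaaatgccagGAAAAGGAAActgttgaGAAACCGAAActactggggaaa
BST2, chr19:17405733-17405772, minus strand: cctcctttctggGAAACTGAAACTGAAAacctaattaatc
OAS3, chr12:112938450-112938473, plus strand: agagccgggcggGAAAACGAAAcc

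The motifs lay at different distances from the start of transcription. Of each gene, the match nearest the start is shown, with any other within 10 bases of it. The match shown for *OAS3* lay 12 to 3 bases before the start and that of *IFI44* 18 to 9 bases, whereas the paired motifs of *BST2* lay 130 to 115 bases before it. For *IFIT1*, *IFI27* and *IFITM3* the stretch holds 2 separate matches, and for *ISG15* and *BST2* it holds 2 that overlap. *IFI6* had 3 matches in the whole window and *IFI44L* and *OAS3* had 2, of which 1 each is shown. The members are also neighbours in the genome. In the Gencode v44 annotation (hg38), 22 of them lay within 200 kb of another member, in 9 clusters. The largest were *IFIT2*, *IFIT3*, *IFIT1* and *IFIT5* at chr10:89283694-89421605, *IFITM2*, *IFITM1* and *IFITM3* at chr11:303655-329475, and *OAS1*, *OAS3* and *OAS2* at chr12:112905856-113011723. The reads were assigned to transcripts by estimation with kallisto, so levels of near-identical paralogs in these clusters, the *IFITM* genes above all, are uncertain.

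Abundance is given in TPM, a share of the transcripts of a library that is adjusted for transcript length. The values keep no record of depth, and the precision of a value is judged from the 3 libraries of its group. Within each line, log2 fold changes were computed on scaled values with limma on the log2(TPM + 0.1) scale, which understates changes of low genes, and p was adjusted over all genes tested in the line. A gene was called differentially expressed (DEG) where its log2 fold change exceeded 1 in either direction and its adjusted p was below 0.05. Counts of members at an unadjusted p under 0.05 are also given. The share of all genes at that looser threshold was not computed, and shares of DEGs are no background for those counts. Nothing in the labels says that replicates came from separate cultures, so the p-values measure only the spread between these samples, which may be technical. The labels were checked on the targeted genes. *TRA2A* was at 62.9% and 33.2% of control in *TRA2A* KO of LN229 and LN319, *TRA2B* was at 65.98% and 35.1% in *TRA2B* KO, and *TRA2B* at 374% and 873% in TRA2B-OE Control KO. In TRA2B-OE *TRA2A* KO, *TRA2A* was at 52.8% of TRA2B-OE Control KO in LN319, but in LN229 at 87.2%, with overlapping libraries (log2 fold change -0.23, adjusted p = 0.0680). In the CRISPRi lines the targeted mRNAs were at 6.54% to 25.2% of control. A Cas9 knockout changes the coding sequence and need not remove the mRNA. Replicate 3 of the A549 Control KD stood apart, with a median correlation of 0.837 with the other A549 libraries. Of a lung epithelial list, *KRT8* and *KRT18* were high in both lung lines (772 to 2804 TPM in the controls). The rest of that list was lower in A549 and NCI-H23 controls. *EPCAM* was at 2.76 and 1.28 TPM, *KRT19* at 5.85 and 0.0766 TPM and *CDH1* at 21.7 and 1.94 TPM. *NKX2-1* was listed at 0 in A549 controls and at 0.73 TPM in NCI-H23. In the glioma lines *VIM* was at 3031 and 3265 TPM and *GFAP* at 2.84 and 2.13 TPM, and *OLIG2* was at 9.78 TPM in LN229 but at 0.0101 TPM in LN319. In A549 and NCI-H23 controls *VIM* was also at 1106 and 1599 TPM, and *GFAP* at 2.49 and 0.339 TPM.

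The 4 lines differed in how much of the program their control cells expressed. The 41 genes together took 329 ± 36.3 TPM (SD, n = 3) in A549 Control KD, 471 ± 23.6 TPM in NCI-H23 Control KD, 1200 ± 466 TPM in LN229 Luc Control KO and 3769 ± 859 TPM in LN319 Luc Control KO. The 4 tables were made separately, and these levels were not tested against each other. The median member was at 2.71 TPM in A549, 0.819 TPM in NCI-H23, 10.02 TPM in LN229 and 22.7 TPM in LN319. A mean of at least 10 TPM was reached by 8 members in each lung line, 21 in LN229 and 30 in LN319. Single genes held much of these sums. *IFITM3*, a membrane protein that blocks fusion of incoming viruses, took 26.0% of the sum in LN229, 26.5% in LN319 and 37.2% in NCI-H23. *ADAR*, which edits adenosines in double-stranded RNA and has a promoter that is active without interferon, took 28% in A549 and 30.7% in NCI-H23.

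**Figure D1:**
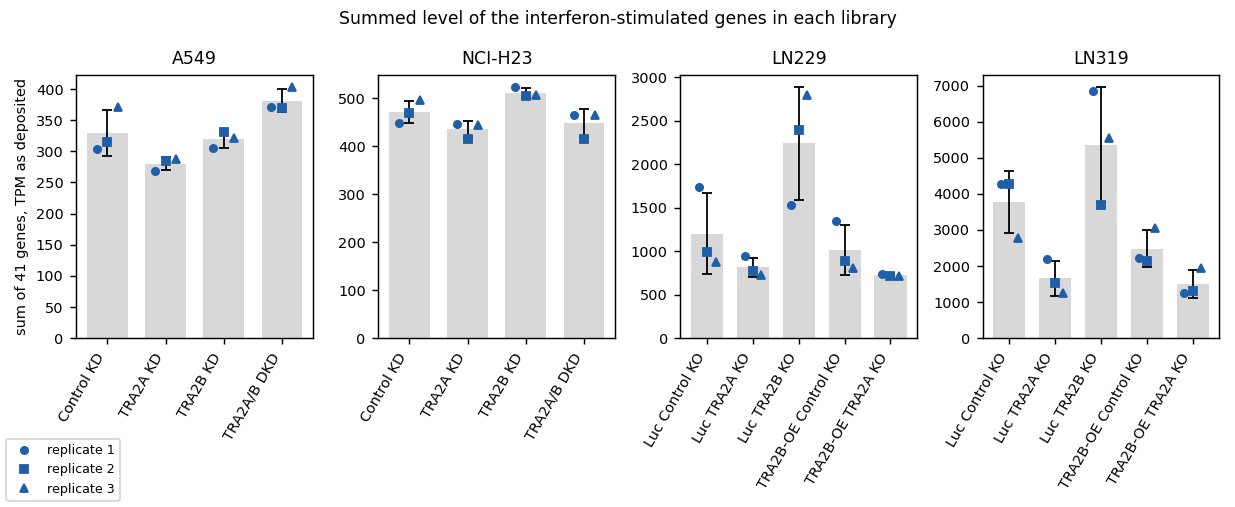
Summed abundance of the 41 interferon-stimulated genes (TPM, linear axis from 0) in every library, with 1 panel per cell line and 1 column per group. Bars are means and error bars SDs of n = 3, and marker shapes give the replicate number (circle 1, square 2, triangle 3). LN319 Luc *TRA2A* KO lies between 1259 and 2188 TPM, below all 3 of its Control KO libraries (2777 to 4269 TPM), whereas LN229 *TRA2B* KO spreads from 1533 to 2800 TPM.

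Members below 1 TPM were found in the lung lines. In A549, *IFI44L*, *DHX58*, *IFITM1*, *XAF1* and *RSAD2* stayed below 1 TPM in all 12 libraries. In NCI-H23 this held for 14 members, namely *IFIT1*, *IFIT2*, *IFIT3*, *IFI44*, *IFI44L*, *OAS2*, *OASL*, *DHX58*, *BST2*, *SAMD9*, *SAMD9L*, *CMPK2*, *RSAD2* and *GBP1*. No member stayed below 1 TPM in LN229 or LN319, although *ISG15* averaged 0.944 TPM in LN229 Luc Control KO. Genes entered the tests where 4 or more libraries of the line reached 1 TPM, which kept 32 members in A549, 21 in NCI-H23 and all 41 in each glioma line. *IFIT1*, *OAS2*, *IFIH1* and *BST2* were also left out in A549, and *OAS1*, *DDX58*, *IFIH1*, *IFITM1*, *XAF1* and *TRIM22* in NCI-H23. Since a member of low level in controls passes this minimum more readily if a perturbation raises it, the counts in the lung lines refer to the members tested and not to all 41.

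The order of the lines was not the same for every role. *BST2*, or tetherin, which holds budding virus at the cell surface, was at 0.154 TPM in A549, 0.0593 TPM in NCI-H23, 27.3 TPM in LN229 and 122 TPM in LN319 controls. *IFI27*, a mitochondrial protein widely used as an interferon marker, was at 1.33, 1.04, 6.15 and 359 TPM in the same order. *IRF9*, the DNA-binding part of ISGF3, was at 17.96, 11.2, 55.2 and 218 TPM. By contrast *IFI44* was higher in LN229 (80.1 TPM) than in LN319 (20.5 TPM), and *OAS1*, which makes the 2'-5' oligoadenylates that activate RNase L, was at 31.5 TPM in A549 but 0.419 TPM in NCI-H23. *OAS3*, the family member with the most OAS domains, was between 11.7 and 52.0 TPM in all 4 lines, and *USP18*, the protease that removes ISG15 from proteins, between 2.02 and 12.7 TPM. *ISG15* itself, a ubiquitin-like modifier, was at 0.757, 1.98, 0.944 and 4.75 TPM.

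Each perturbation was compared with the control of its line in 14 comparisons, where *TRA2A* KO with overexpressed *TRA2B* had the TRA2B-OE Control KO as its own control. Of the members, 20 were DEGs in at least 1 comparison and 21 in none, 8 were DEGs in more than 1, and 6 were higher in one comparison and lower in another, namely *IFI6*, *IFI44*, *ISG15*, *DHX58*, *XAF1* and *TRIM22*. Comparisons of one line share their controls and are not independent of each other. The median log2 fold change of all genes was within 0.04 of 0 in each of the 14.

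**Figure D2:**
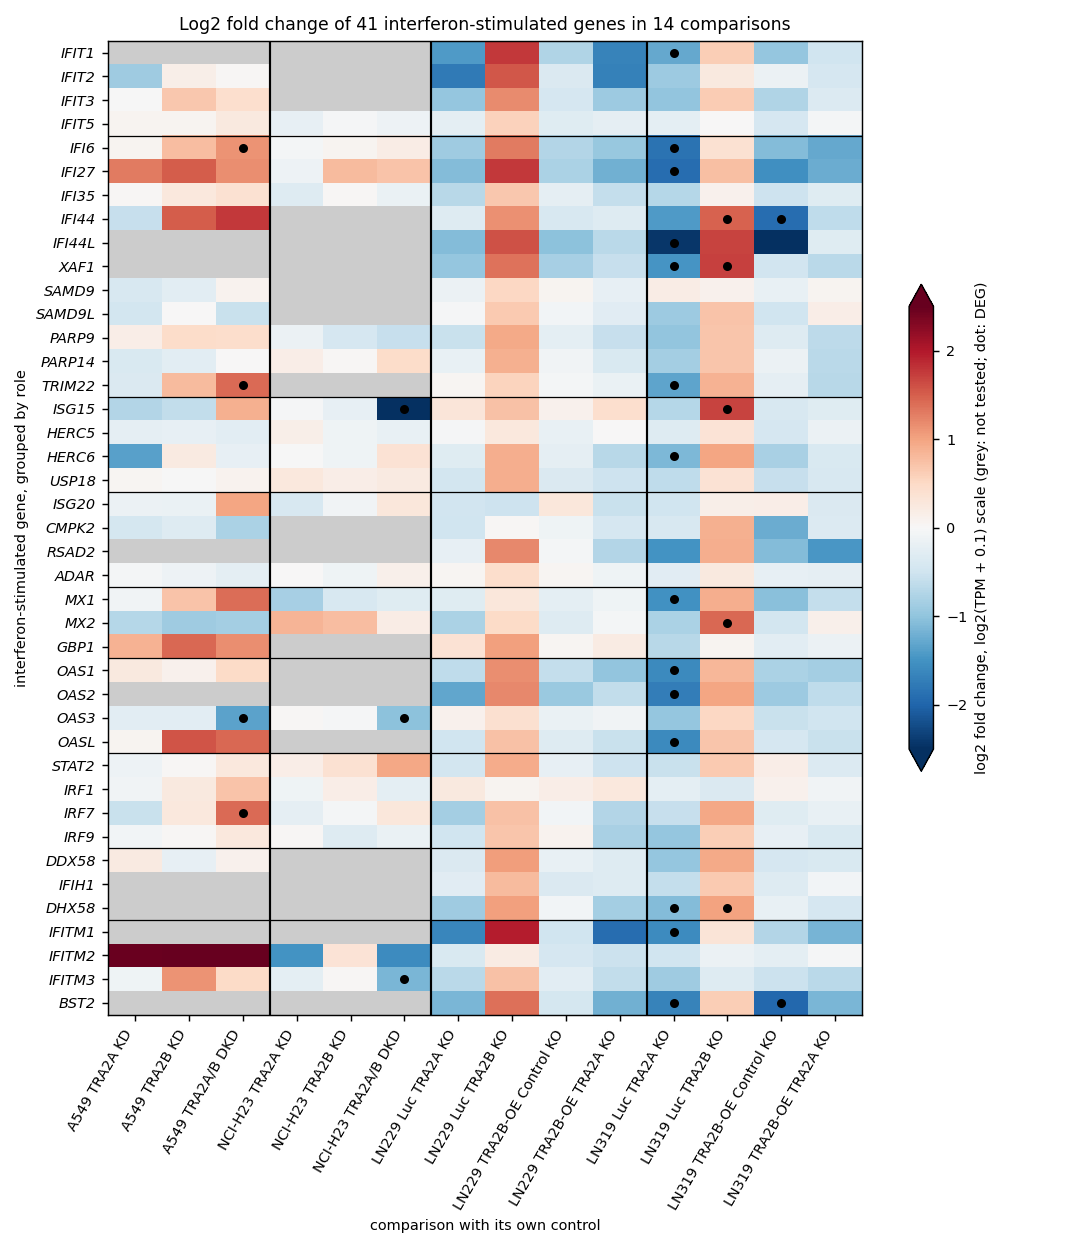
Log2 fold changes of the 41 members (rows, grouped by role) in 14 comparisons (columns), on a colour scale from -2.5 to 2.5 with blue for lower and red for higher. Grey cells were not tested and black dots mark DEGs. LN319 *TRA2A* KO holds 14 dots, all lower, and LN319 *TRA2B* KO holds 5, all higher.

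In LN319 *TRA2A* KO much of the program was lower. Of 41 members, 14 (34.1%) were DEGs and all 14 fell, where 0.979% of the 19303 genes tested were DEGs of that direction. Without the minimum fold change 23 members fell and none rose, against 7.44% of all genes. Negative estimates were found for 40 of 41, with *SAMD9* the exception, and the median was -0.96. The 3 *TRA2A* KO libraries lay below all 3 Control KO libraries for 26 members (18.8% of all genes). How the 14 DEGs were spread over the roles was not tested. The role groups are small and were written with earlier results of these data known. *OAS1*, *OAS2* and *OASL* fell among 4 genes of the OAS family (median -1.59), and *IFITM1* and *BST2* among 4 membrane restriction factors (median -1.23). *IFI6*, *IFI27*, *IFI44L*, *XAF1* and *TRIM22* fell among 11 other effectors (median -1.31). *IFIT1*, *MX1*, *DHX58* and *HERC6* were the DEGs of the IFIT proteins, the GTPases, the RNA sensors and the ISG15 pathway, whereas none of the 4 transcription factors and none of the 4 RNA and nucleotide enzymes was a DEG.

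*IFI27* and *IFI6* had the largest changes among members whose groups did not overlap. *IFI27* was at 416, 402 and 259.6 TPM in Control KO and at 232, 82.1 and 39.8 TPM in *TRA2A* KO, a log2 fold change of -1.91 (SE 0.53, adjusted p = 0.0316). *IFI6*, which restricts flavivirus replication at the endoplasmic reticulum, was at 899.8, 868 and 432 TPM against 356, 170.2 and 111 TPM (-1.84, SE 0.47, adjusted p = 0.0211). The groups did not overlap for either gene, and replicate 1 was the highest of the 3 *TRA2A* KO libraries for both. *BST2* was at 135, 152 and 79.7 TPM against 51.1, 35.2 and 26.1 TPM (-1.67, SE 0.44, adjusted p = 0.0249). *IFITM1*, which acts at the plasma membrane, was at 407, 459.8 and 249.5 TPM against 161, 120.5 and 83.7 TPM (-1.58, SE 0.36, adjusted p = 0.0125). Both membrane factors were lower in every *TRA2A* KO library than in any control.

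*OAS1*, *OAS2*, *MX1* and *XAF1* also fell without overlap between the groups. *OAS2* was at 11.0, 10.9 and 5.57 TPM in Control KO and 3.69, 2.497 and 1.67 TPM in *TRA2A* KO (-1.74, SE 0.43, adjusted p = 0.0177). *OAS1* was at 42.8, 42.7 and 24.7 TPM against 16.6, 11.8 and 7.63 TPM (-1.59, SE 0.41, adjusted p = 0.0212). *MX1*, a GTPase that traps viral ribonucleoproteins, was at 104, 115 and 49.0 TPM against 47.3, 27.9 and 17.4 TPM (-1.52, SE 0.43, adjusted p = 0.0342). For *MX1* the lowest control and the highest knockout library nearly met, at 49.0 and 47.3 TPM. *XAF1*, a pro-apoptotic protein that binds XIAP, was at 49.3, 63.3 and 27.2 TPM against 24.4, 15.6 and 9.41 TPM (-1.48, SE 0.38, adjusted p = 0.0221). The lowest of the controls was replicate 3 for each of these 4 genes.

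Of the other 6 DEGs, *IFIT1*, *TRIM22*, *HERC6* and *DHX58* fell by 1.08 to 1.31 on the log2 scale without overlap between groups. *IFIT1*, which binds RNA that lacks 2'-O-methylation of its cap, was at 31.2, 29.9 and 17.1 TPM against 14.1, 10.2 and 6.95 TPM (adjusted p = 0.0427). In *IFI44L* and *OASL* the libraries overlapped. *IFI44L* was at 6.26, 5.74 and 1.28 TPM against 1.82, 0.624 and 0.124 TPM, the largest estimate of all members (-2.44, SE 0.76), with an adjusted p of 0.04999 that lies at the threshold. *OASL* was at 5.41, 4.08 and 1.59 TPM against 1.71, 0.888 and 0.638 TPM (-1.60, SE 0.43, adjusted p = 0.0269).

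The regulators moved less than the effectors. *IRF9* was at 247, 238 and 169.5 TPM in Control KO and at 160.1, 115 and 67.9 TPM in *TRA2A* KO (-0.96, SE 0.24, adjusted p = 0.0190), and *STAT2* at 85.8, 85.7 and 66.1 TPM against 60.6, 51.0 and 45.7 TPM (-0.56, SE 0.14, adjusted p = 0.0214). Both passed the test and missed the minimum fold change. The same held for *IFIT2*, *IFI35*, *OAS3*, *IFITM3*, *PARP9*, *PARP14* and *GBP1*, whose estimates ran from -0.70 to -0.99. *PARP9* and *PARP14*, ADP-ribosyltransferase family members that share a genomic neighbourhood, had the smallest adjusted p of all members (0.00321 and 0.00192). *DDX58*, the RNA sensor RIG-I, was at 10.2, 10.8 and 4.57 TPM against 5.49, 4.01 and 2.72 TPM and did not pass (-0.97, SE 0.37, adjusted p = 0.0982). *USP18* (-0.63, adjusted p = 0.144), *ISG15* (-0.72, adjusted p = 0.235) and *ADAR* (-0.29, adjusted p = 0.0502) did not pass either. *ADAR* was nevertheless lower in all 3 knockout libraries, at 89.2, 86.0 and 72.1 TPM against 102.5, 115 and 92.1 TPM.

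In LN319 *TRA2B* KO the estimates pointed the other way. Of 41 members, 5 (12.2%) were DEGs and all 5 rose, where 3.02% of all genes were DEGs of that direction. Positive estimates were found for 38 of 41, with a median of 0.66. Without the minimum fold change 11 members rose and 1, *IRF1*, fell, where 18.6% of all genes rose and 24% fell. The 3 *TRA2B* KO libraries lay above all controls for 16 members (39.0%), which lies close to the 33.1% of all genes. The share of transcripts from the mitochondrial genome was also higher in this group, at 18.3% to 20.6% beside 12.1% to 12.8% in Control KO and 13.2% to 15.0% in *TRA2A* KO, and its part in these results was not tested.

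The 5 that rose were of mixed roles. *XAF1* was at 248, 99.2 and 154 TPM in *TRA2B* KO, against 49.3, 63.3 and 27.2 TPM in Control KO (log2 fold change 1.72, SE 0.38, adjusted p = 0.00313). *ISG15* was at 24.5, 11.9 and 15.5 TPM against 4.50, 5.82 and 3.94 TPM (1.69, SE 0.37, adjusted p = 0.00301). *IFI44* was at 94.2, 33.9 and 60.8 TPM against 26.2, 24.5 and 10.9 TPM (1.48, SE 0.48, adjusted p = 0.0239). In all 3 genes replicate 2 was the lowest of the knockout libraries and still lay above every control. *MX2*, a GTPase at the nuclear pore that blocks HIV-1, was at 22.3, 12.5 and 19.1 TPM against 5.47, 7.86 and 4.75 TPM (1.45, SE 0.27, adjusted p = 9.48e-04). *DHX58*, the regulatory sensor LGP2, was at 87.5, 47.8 and 64.6 TPM against 31.8, 37.4 and 21.9 TPM (1.01, SE 0.25, adjusted p = 0.00632).

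*IRF7*, the transcription factor that amplifies interferon production, was at 127, 80.9 and 110.1 TPM against 56.5, 58.5 and 36.8 TPM (0.97, SE 0.19, adjusted p = 0.00146), and *STAT2* at 153, 110.4 and 139.5 TPM against 85.8, 85.7 and 66.1 TPM (0.65, SE 0.14, adjusted p = 0.00282). *PARP9*, *PARP14*, *HERC6* and *ADAR* also rose below the minimum fold change (0.24 to 0.99). *IRF1*, which responds mainly to interferon gamma, was at 16.2, 15.8 and 16.6 TPM against 18.8, 20.3 and 19.1 TPM (-0.36, SE 0.08, adjusted p = 0.00308). The most abundant members did not pass. *IFI27* was at 915, 415 and 685 TPM against 416, 402 and 259.6 TPM (0.75, adjusted p = 0.279), and *IFITM3* at 979, 673.5 and 952 TPM against 1113, 1037 and 851 TPM (-0.32, adjusted p = 0.282). *MX1* (0.91, adjusted p = 0.110), *DDX58* (0.94, adjusted p = 0.0545), *IFIT1* (0.62, adjusted p = 0.223), *IRF9* (0.61, adjusted p = 0.0576) and *USP18* (0.36, adjusted p = 0.303) had positive estimates that did not pass.

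**Figure D3:**
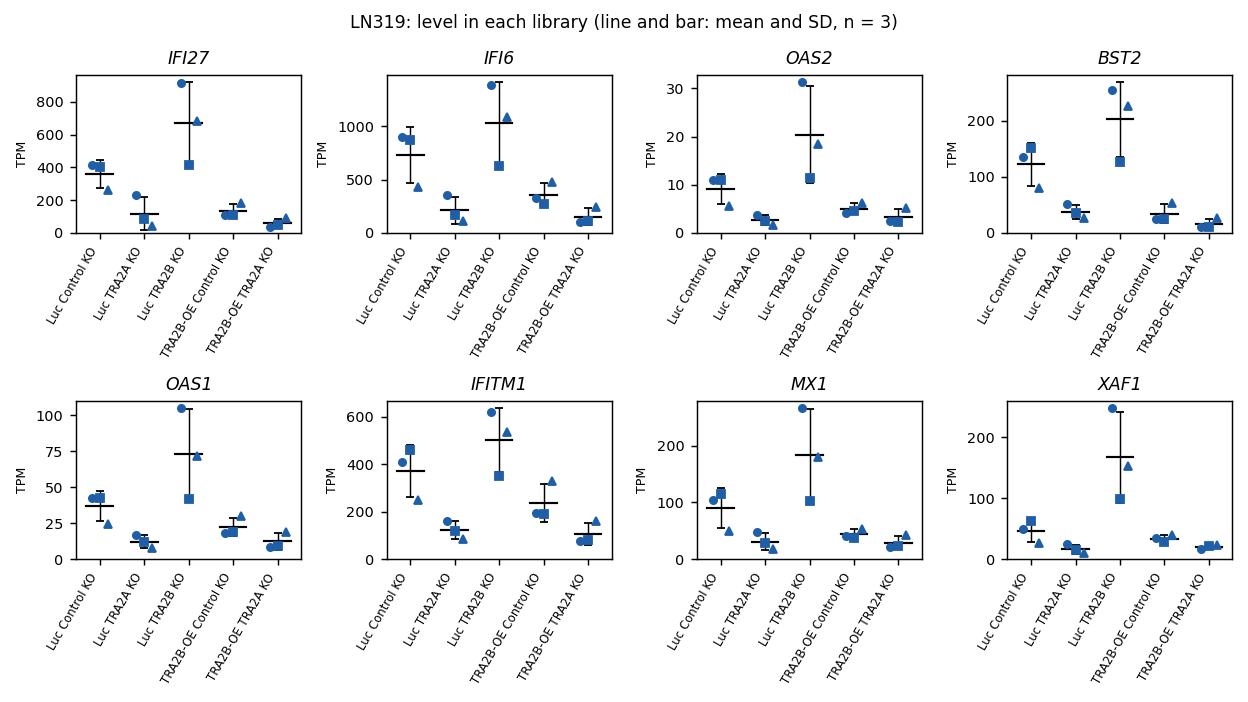
Abundance (TPM, linear axes from 0) of 8 members in the 15 LN319 libraries, by group, with the mean as a line, the SD as an error bar (n = 3) and the replicate number as the marker shape (circle 1, square 2, triangle 3). Each gene is lower in all 3 Luc *TRA2A* KO libraries than in all 3 Luc Control KO libraries, and the *TRA2B* KO libraries spread widely, from 99.2 to 248 TPM for *XAF1*.

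Overexpression of *TRA2B* alone gave lower estimates in LN319. Between TRA2B-OE Control KO and Luc Control KO, 38 of 41 estimates were negative (median -0.45) and 2 members were DEGs, both lower, where 0.207% of all genes were. *BST2* was at 25.0, 25.0 and 53.7 TPM in TRA2B-OE Control KO against 135, 152 and 79.7 TPM (-1.95, SE 0.44, adjusted p = 0.0323). *IFI44* was at 5.95, 3.98 and 6.48 TPM against 26.2, 24.5 and 10.9 TPM (-1.91, SE 0.48, adjusted p = 0.0444). The remaining members did not pass, among them *IFI27* (-1.53, adjusted p = 0.108) and *IFI6* (-1.09, adjusted p = 0.177), while *STAT2* had a positive estimate of 0.17 (adjusted p = 0.490).

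On the TRA2B-OE background the response to *TRA2A* KO did not pass the test for nearly all members. No member was a DEG by limma, with 0.233% DEGs among all genes. By the same test 10 members had an unadjusted p under 0.05, all lower, without a share of all genes. Without the minimum fold change *PARP14* alone fell, where 1.29% of all genes did (49.6, 43.7 and 45.8 TPM against 26.3, 28.1 and 29.3 TPM in *TRA2A* KO, -0.67, SE 0.14, adjusted p = 0.0275). Negative estimates were found for 38 of 41 (median -0.38), and for 19 members all 3 *TRA2A* KO libraries lay below all 3 controls (14.4% of all genes). *IFI6* was at 101, 109 and 242 TPM in *TRA2A* KO against 323, 272 and 482 TPM, without overlap (-1.28, SE 0.47, adjusted p = 0.172). The difference between the responses, TRA2B-OE minus Luc, was tested for each gene and gave 0 DEGs among the members (0.0104% of all genes), with 3 members, *SAMD9L*, *MX2* and *GBP1*, at an unadjusted p under 0.05. The estimates of this difference were positive for 40 of 41 members, with a median of 0.52. For *OAS2* the difference was 1.11 (SE 0.61, adjusted p = 0.709) and for *IFI6* 0.57 (SE 0.67, adjusted p = 0.878). The responses with and without overexpressed *TRA2B* were thus not shown to differ.

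The members moved together between libraries of one group in LN319, which limits how many independent values the 41 genes give. Control KO replicate 3 was the lowest of its group for 38 members (92.7%) beside 31.8% of all genes. *TRA2A* KO replicate 1 was the highest for 38, beside 28.3% of all genes. In *TRA2B* KO replicate 1 was the highest for 38 and replicate 2 the lowest for 40 (97.6%), beside 34.4% and 32.0% of all genes. The count of 14 in *TRA2A* KO depended on single libraries. It was 21 without Control KO replicate 3 and 20 without *TRA2A* KO replicate 1, but 1 (*IFITM1*) without Control KO replicate 1, 0 without Control KO replicate 2, 5 without *TRA2A* KO replicate 2 and 0 without *TRA2A* KO replicate 3, where 0.661% to 1.01% of all genes were lower DEGs. The median stayed between -0.78 and -1.11 throughout. The count of 5 in *TRA2B* KO was 14 without its replicate 2, 8 without either Control KO replicate 1 or 2, and 3 without Control KO replicate 3 or *TRA2B* KO replicate 1, where 2.41% to 3.48% of all genes were higher DEGs. The 2 DEGs of TRA2B-OE Control KO were 0 without Luc Control KO replicate 1 or 2 or its own replicate 1 or 2.

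In LN229 the medians of both knockouts had the same signs as in LN319, and no member was a DEG in any of the 4 comparisons by limma. In Luc *TRA2B* KO 40 of 41 estimates were positive (median 0.88), and 0.135% of all genes were DEGs. By limma, 32 members had an unadjusted p under 0.05 in the higher direction and 1, *ISG20*, in the lower. No share of all genes is available at that looser threshold. The smallest adjusted p values were 0.0730 for *IFI27* and 0.0749 for *GBP1*. *IFI27* was at 10.9, 24.0 and 34.6 TPM in *TRA2B* KO against 8.97, 5.51 and 3.97 TPM in Control KO (log2 fold change 1.77, SE 0.43). *GBP1*, a guanylate-binding protein that coats intracellular pathogens, was at 17.0, 22.8 and 27.1 TPM against 16.6, 8.24 and 8.16 TPM (1.02, SE 0.25). *IFIH1* and *IFITM3* were the other 2 members without overlap between the groups, so 4 in all did not overlap, and 14.3% of all genes lay above all controls.

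The overlap lay in the libraries numbered 1. Control KO replicate 1 was the highest of its group for 36 members (87.8%) beside 39.1% of all genes, and *TRA2B* KO replicate 1 the lowest of its group for 40 (97.6%) beside 35.4%. Replicate 1 was also the highest of its group for 33 members in Luc *TRA2A* KO, 38 in TRA2B-OE Control KO and 25 in TRA2B-OE *TRA2A* KO, beside 33.99%, 42.1% and 37.2% of all genes. *IFITM1* was at 48.4, 12.3 and 8.91 TPM in Control KO and at 41.2, 74.6 and 113.5 TPM in *TRA2B* KO (1.96, SE 0.62, adjusted p = 0.113). *IFIT1* was at 10.2, 2.39 and 2.00 TPM against 7.06, 15.7 and 21.1 TPM (1.77, SE 0.66, adjusted p = 0.145). *IFI6* was at 276, 126 and 96.6 TPM against 220.2, 454.6 and 552 TPM (1.30, SE 0.42, adjusted p = 0.116). For each of the 3 genes the libraries numbered 1 overlapped and the others did not. Without Control KO replicate 1, 22 members rose as DEGs (1.96% of all genes), and without *TRA2B* KO replicate 1 it was 1, *IFI44*. With the replicate 1 libraries of all 5 LN229 groups left out, a setting chosen after seeing the data, 29 members were DEGs and all rose (2.26% of all genes).

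The regulators of LN229 *TRA2B* KO had smaller estimates with the same order of libraries. *STAT2* was at 54.0, 82.7 and 83.9 TPM in *TRA2B* KO against 58.8, 27.8 and 30.4 TPM (0.92, SE 0.26, adjusted p = 0.0908), and *IRF9* at 66.03, 98.2 and 103 TPM against 79.4, 51.2 and 35.0 TPM (0.69, SE 0.26, adjusted p = 0.147). *DDX58* was at 7.42, 14.6 and 19.9 TPM against 10.1, 4.80 and 4.42 TPM (1.04, SE 0.37, adjusted p = 0.133). *USP18* (0.92, adjusted p = 0.132), *ADAR* (0.44, adjusted p = 0.136), *ISG15* (0.73, adjusted p = 0.253) and *MX1* (0.29, adjusted p = 0.457) did not pass. *MX1* was at 5.11, 8.04 and 5.94 TPM in *TRA2B* KO, so the gene that reached 266 TPM in LN319 *TRA2B* KO stayed below 10 TPM in LN229.

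**Figure D4:**
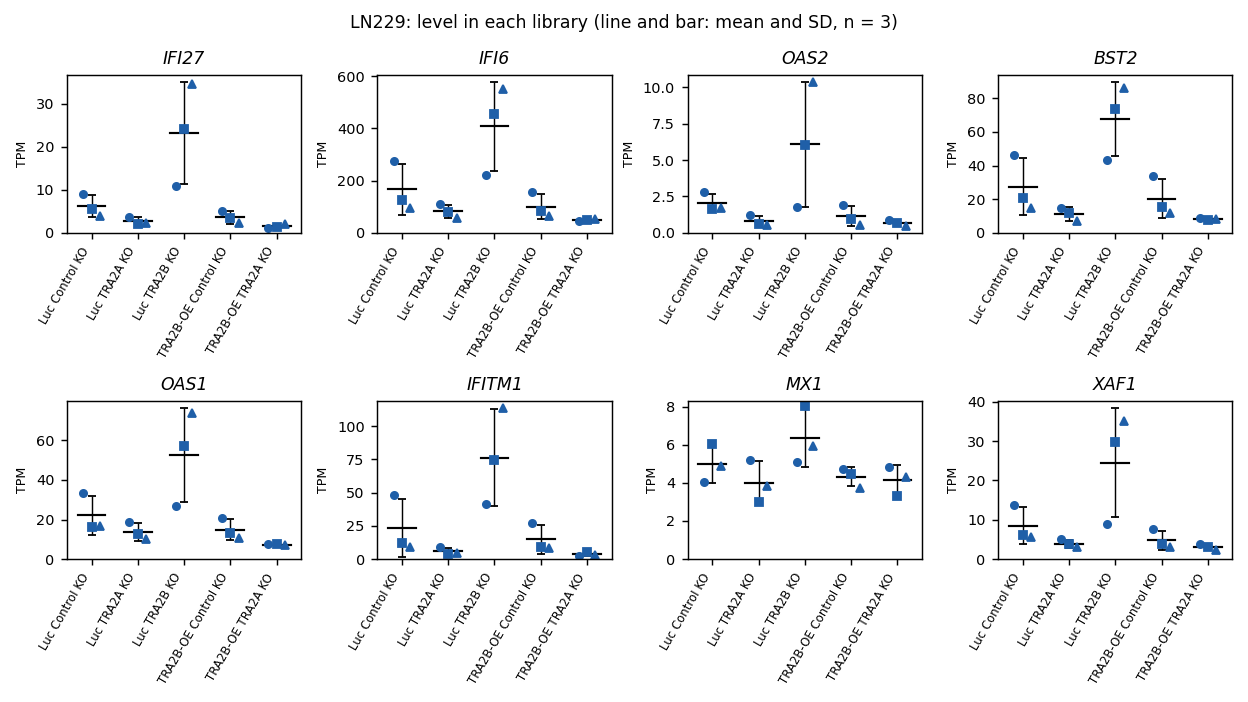
Abundance (TPM, linear axes from 0) of the same 8 members in the 15 LN229 libraries, by group, with the mean as a line, the SD as an error bar (n = 3) and the replicate number as the marker shape (circle 1, square 2, triangle 3). In *TRA2B* KO the circle lies below the square and triangle for each gene, and for 7 of the 8 genes, *IFI27* excepted, below the highest control, as for *IFI6* at 220.2 TPM beside 276 TPM.

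In LN229 *TRA2A* KO 35 of 41 estimates were negative (median -0.48), and 0.714% of all genes were DEGs. By limma, 12 members had an unadjusted p under 0.05 in the lower direction and 1, *IRF1*, in the higher, again without a share of all genes. All 3 knockout libraries lay below all controls for 11 members (12.8% of all genes). *IFIT2*, which binds AU-rich RNA, was at 3.57, 1.02 and 1.31 TPM against 20.4, 3.12 and 3.58 TPM (-1.78, SE 0.69, adjusted p = 0.160). *IFITM1* was at 9.13, 4.22 and 4.34 TPM against 48.4, 12.3 and 8.91 TPM (-1.63, SE 0.62, adjusted p = 0.156). *BST2* was at 15.0, 11.6 and 7.11 TPM against 46.5, 20.6 and 14.9 TPM (-1.14, SE 0.44, adjusted p = 0.155). Control KO replicate 1 was the highest library for each of these. Without the libraries numbered 1, *IFIT1*, *IFIT2* and *IFITM1* were DEGs and fell (0.564% of all genes), and on the TRA2B-OE background 3 members fell (1.01% of all genes).

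On the TRA2B-OE background of LN229, where the *TRA2A* mRNA itself did not pass, *TRA2A* KO gave 37 negative estimates of 41 (median -0.56) and 0 DEGs by limma (1.12% of all genes). By limma, 13 members had an unadjusted p under 0.05 in the lower direction and 1, *IRF1*, in the higher, without a share of all genes. All 3 knockout libraries lay below all 3 controls for 21 members, beside 11.5% of all genes. *IFITM1* was at 2.35, 5.33 and 3.15 TPM against 27.3, 8.81 and 8.58 TPM (-1.91, SE 0.62, adjusted p = 0.0917), and *IRF9* at 31.3, 35.5 and 33.4 TPM against 75.5, 56.3 and 44.4 TPM (-0.81, SE 0.26, adjusted p = 0.0826). These knockout libraries lay close together, with a summed abundance of 724 ± 13.7 TPM (SD, n = 3) beside 1014 ± 288 TPM in TRA2B-OE Control KO. The difference between the responses with and without overexpressed *TRA2B* had a median of -0.04, with 18 positive and 23 negative estimates, 0 DEGs (0% of all genes) and 0 members at an unadjusted p under 0.05 by limma. Overexpression alone gave 0 DEGs (0.303% of all genes) and 0 members at an unadjusted p under 0.05 (median -0.24).

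*CD74*, which interferon gamma induces and which was also in a list of 8 leukocyte markers, made up almost all of that list in LN229. The summed list ranged from 3277 to 4054 TPM in Luc Control KO, 2004 to 2836 TPM in *TRA2A* KO, 3458 to 3661 TPM in *TRA2B* KO and 1746 to 1783 TPM in TRA2B-OE *TRA2A* KO. *CD74* fell in *TRA2A* KO (-0.52, adjusted p = 0.0265) and in TRA2B-OE *TRA2A* KO (-0.83, adjusted p = 0.00160), and did not pass in *TRA2B* KO (-0.06, adjusted p = 0.746). The defining T cell marker *CD3E* stayed at or below 0.0974 TPM in all LN229 libraries, and *PTPRC* at or below 1.83 TPM. In LN319 the list summed to 13.2 to 22.0 TPM in the Luc libraries and to 53.8 to 84.3 TPM in the TRA2B-OE libraries.

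*TRA2B* KO and *TRA2A* KO of one line can also be set side by side without the control. In LN319 the 3 *TRA2B* KO libraries lay above all 3 *TRA2A* KO libraries for 36 of 41 members, beside 37% of all genes, and in no member below, beside 22.7%. The exceptions were *IFIT5*, *ISG20*, *IRF1*, *IFITM2* and *SAMD9*. In LN229 it was 32 of 41, beside 29.8% of all genes, and again none below, beside 22.8%. Here the exceptions were *ISG15*, *ISG20*, *MX1*, *OAS3*, *IRF1*, *SAMD9L*, *HERC5*, *CMPK2* and *ADAR*. *ISG20*, an exonuclease of single-stranded RNA, and *IRF1* were exceptions in both lines. In LN319, *IFI27* ranged from 415 to 915 TPM in *TRA2B* KO and from 39.8 to 232 TPM in *TRA2A* KO, and in LN229 from 10.9 to 34.6 TPM and from 2.14 to 3.77 TPM.

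In the lung lines no tested member was a DEG after knockdown of one paralog. *TRA2A* KD gave 0 DEGs among the 32 members tested in A549 by limma (0.116% of all genes), with *HERC6* at an unadjusted p under 0.05 (-1.35, adjusted p = 0.179). *TRA2B* KD in A549 also gave 0 DEGs (0.232% of all genes) and 5 members at an unadjusted p under 0.05, all higher, namely *IFI6*, *OASL*, *PARP9*, *TRIM22* and *GBP1*. That count of 5 again has no share of all genes beside it. In NCI-H23 the 21 members tested held 0 DEGs in *TRA2A* KD (0.252% of all genes) and 0 in *TRA2B* KD (0.11% of all genes), with 1 member each at an unadjusted p under 0.05, *IFI35* in the lower and *STAT2* in the higher direction. The medians ran from -0.10 to 0.12 in these 4 comparisons.

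In A549 *TRA2A/B* DKD 3 members rose and 1 fell, where 7.53% and 5.27% of all genes were DEGs of each direction, and 4 of 32 lies close to the 12.8% of all genes. *IRF7* was at 8.26, 8.97 and 10.3 TPM in DKD against 3.79, 4.29 and 1.93 TPM in Control KD (log2 fold change 1.42, SE 0.33, adjusted p = 0.00876). *TRIM22*, a ubiquitin ligase that restricts several viruses, was at 9.13, 9.72 and 6.30 TPM against 1.97, 3.61 and 3.30 TPM (1.41, SE 0.28, adjusted p = 0.00327). *IFI6* was at 15.8, 15.1 and 20.8 TPM against 8.82, 8.07 and 5.66 TPM (1.12, SE 0.27, adjusted p = 0.00906). In all 3 genes every DKD library lay above every control, and without Control KD replicate 3 *IFI6* rose by 0.86 and was no longer a DEG. *OAS3* was at 17.0, 18.2 and 15.9 TPM against 33.4, 35.5 and 58.1 TPM (-1.35, SE 0.15, adjusted p = 9.11e-05). *IRF1* rose below the minimum fold change, from 12.3, 16.9 and 22.8 TPM to 29.9, 27.2 and 30.5 TPM (0.71, SE 0.14, adjusted p = 0.00354).

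The other members of the OAS family in A549 DKD had estimates of the other sign, *OASL* at 1.44 (adjusted p = 0.0521) and *OAS1* at 0.48 (adjusted p = 0.199). *MX1* was at 3.03, 3.73 and 3.54 TPM against 2.66, 0.905 and 0.622 TPM (1.40, SE 0.73, adjusted p = 0.176). *ISG15* was at 1.17, 1.79 and 1.67 TPM against 0.696, 1.09 and 0.491 TPM (0.89, SE 1.04, adjusted p = 0.555). *STAT2* (0.27), *IRF9* (0.27), *USP18* (0.09), *DDX58* (0.10) and *ADAR* (-0.25) did not pass. Control KD replicate 3 had *IFITM2* and *IFITM3* listed at 0 and *ADAR* at 133 TPM, beside 70.8 and 73.3 TPM for *ADAR* in the other 2 controls. All 3 DKD libraries lay above all controls for 13 of 32 members (23.8% of all genes). The leukocyte marker list was at 15.0 to 21.3 TPM in DKD and 3.98 to 7.03 TPM in Control KD, and its part in these values was not tested. *ITGAM* made up most of the DKD sum, at 13.96 to 20.02 TPM beside 1.74 to 4.43 TPM in Control KD. *CD14* was lower in DKD, at a mean of 0.716 TPM beside 1.94 TPM, *PTPRC* was at most 0.308 TPM and *CD3E* was listed at 0 in both groups.

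The double knockdown of A549 was also compared with the single ones. *OAS3* was at 32.4, 31.9 and 28.4 TPM in *TRA2A* KD and at 29.4, 29.3 and 37.7 TPM in *TRA2B* KD, and the DKD effect minus both single effects was -0.81 (SE 0.22, adjusted p = 0.0306). *IRF7* was at 2.37, 1.81 and 1.60 TPM and at 3.15, 3.72 and 4.01 TPM in the single knockdowns, and this difference was 1.71 (SE 0.47, adjusted p = 0.0351). *IRF7* was the 1 member that was a DEG of the difference (7.72% of all genes), and it was not one under 12 of 18 alternatives, 10 of them with a single library left out (adjusted p up to 0.0858). *TRIM22*, at 2.01, 2.23 and 1.79 TPM in *TRA2A* KD and 3.66, 4.56 and 6.21 TPM in *TRA2B* KD, and *IFI6*, at 8.04, 5.35 and 7.79 TPM and 11.9, 13.98 and 10.4 TPM, did not pass this test.

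In NCI-H23 *TRA2A/B* DKD 3 of the 21 members tested fell and 0 rose as DEGs, beside 5.74% of all genes in the lower and 7.08% in the higher direction. Taken in either direction, 3 of 21 (14.3%) lies close to the 12.8% of all genes. *IFITM3* was at 102.3, 72.0 and 93.5 TPM in DKD against 162, 173 and 191 TPM in Control KD (-1.14, SE 0.12, adjusted p = 2.69e-05). *OAS3* was at 6.27, 5.86 and 6.79 TPM against 10.4, 13.5 and 11.2 TPM (-1.03, SE 0.11, adjusted p = 3.71e-05). *ISG15* was at 0.653, 0 and 0.617 TPM against 1.66, 2.38 and 1.91 TPM (-2.58, SE 0.68, adjusted p = 0.00996), where 1 library was listed at 0 and the estimate depends on the pseudocount. The groups did not overlap for any of the 3. With TPM as deposited in place of the scaling *ISG15* alone of these 3 was a DEG, and *STAT2* became one. *STAT2* rose below the minimum fold change, from 20.1, 22.98 and 23.8 TPM to 56.7, 39.1 and 51.0 TPM (0.96, SE 0.14, adjusted p = 3.38e-04).

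None of these genes was a DEG in the single knockdowns of NCI-H23. *OAS3* was at 11.4, 10.7 and 13.1 TPM in *TRA2A* KD and at 11.0, 12.9 and 13.3 TPM in *TRA2B* KD, and the DKD effect minus both single effects was -1.03 (SE 0.16, adjusted p = 0.00129), the only DEG of this difference among the members (6.56% of all genes). *IFITM3* was at 160.2, 121 and 163 TPM and at 204, 195 and 185 TPM in the single knockdowns, and its difference was -0.94 (SE 0.17, adjusted p = 0.00308). *STAT2* was at 26.8, 27.7 and 20.6 TPM in *TRA2A* KD and at 32.2, 27.1 and 35.6 TPM in *TRA2B* KD. *OAS3* was the 1 member that was a lower DEG in the double knockdown of both lung lines. In NCI-H23 it lost the call in 5 of 14 alternatives, with estimates from -1.11 to -0.87. *IRF9* (-0.16), *MX1* (-0.31), *USP18* (0.23) and *ADAR* (0.13) did not pass in NCI-H23 DKD. *IFIT1* and *DDX58*, which were too low to be tested, were at 0.113 to 0.166 TPM and 0.254 to 0.585 TPM in DKD, beside 0.253 to 0.408 TPM and 0.637 to 0.825 TPM in Control KD.

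**Figure D5:**
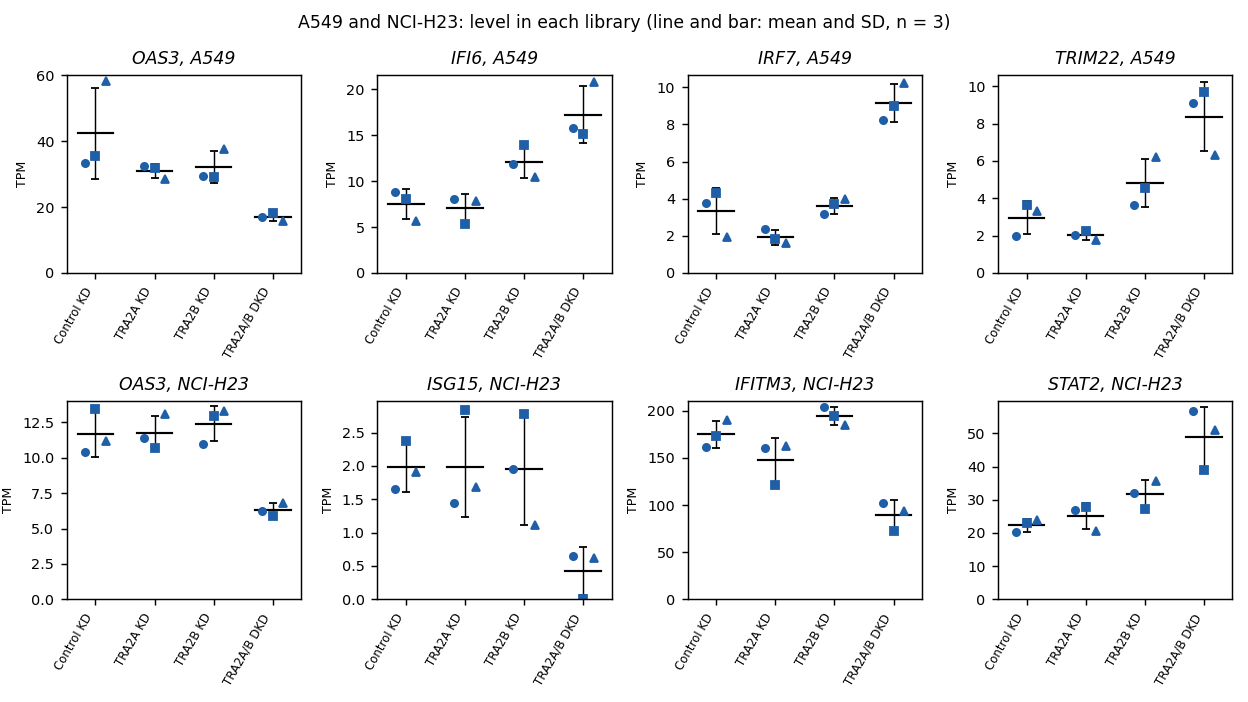
Abundance (TPM, linear axes from 0) of *OAS3*, *IFI6*, *IRF7* and *TRIM22* in A549 and of *OAS3*, *ISG15*, *IFITM3* and *STAT2* in NCI-H23, by group of 3 libraries, with the mean as a line, the SD as an error bar and the replicate number as the marker shape (circle 1, square 2, triangle 3). *OAS3* is lower in all 3 *TRA2A/B* DKD libraries than in every other library of its line, at 15.9 to 18.2 TPM in A549 and 5.86 to 6.79 TPM in NCI-H23.

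The ligands and receptors of the pathway were described from lists of further genes. Of 10 interferon genes only *IFNE*, an epithelial type I interferon, passed the minimum level, in every line, and it was a DEG in none of the 14 comparisons. *IFNB1* stayed at or below 0.365 TPM and *IFNL1* at or below 0.529 TPM in the glioma libraries, and both were listed at 0 in the lung controls. None of the tested receptor genes was a DEG. Without the minimum fold change, 4 of 6 receptor genes fell in LN319 *TRA2B* KO, where 24% of all genes did, and all 6 estimates were negative. In LN319 *TRA2A* KO 3 of 6 fell, where 7.44% of all genes did. *IFNAR1* fell in LN319 *TRA2B* KO below the minimum fold change (-0.75, adjusted p = 0.00258), and *IFNAR2* in LN319 *TRA2A* KO (-0.52, adjusted p = 0.0318), in LN229 TRA2B-OE *TRA2A* KO (-0.36, adjusted p = 0.0490), in A549 DKD (-0.80, adjusted p = 0.00797) and in NCI-H23 DKD (-0.58, adjusted p = 2.87e-04). The kinase gene *TYK2* rose by 0.39 in LN319 *TRA2B* KO (adjusted p = 1.45e-04) and fell by 0.43 in A549 DKD (adjusted p = 0.0420), and *JAK1* rose by 0.17 in the former (adjusted p = 0.0367), rose by 0.35 in NCI-H23 DKD (adjusted p = 0.0212) and fell by 0.43 in A549 DKD (adjusted p = 0.00393). *IRF3*, the factor that starts interferon transcription, fell by 0.37 in NCI-H23 DKD (adjusted p = 0.00148).

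A further list of 26 interferon-induced genes that are not members had smaller estimates of the same sign in the glioma lines. In LN319 *TRA2A* KO 24 of its 25 tested genes were negative (median -0.39) and 2 fell as DEGs, where 0.979% of all genes did, namely *DDX60*, a helicase that assists RIG-I (-1.07, adjusted p = 0.0251), and *UBA7*, the activating enzyme of ISG15 (-1.03, adjusted p = 0.00385). In LN319 *TRA2B* KO 19 of 25 were positive (median 0.43) and *DDX60* was the 1 DEG and rose (3.02% of all genes), to a mean of 17.0 TPM from 6.44 TPM (1.22, adjusted p = 0.00390). In LN229 *TRA2B* KO 23 of 25 were positive (median 0.38) with 0 DEGs by limma and 14 in the higher direction at an unadjusted p under 0.05. That count of 14 has no share of all genes to be set against. *TLR3*, an endosomal sensor of double-stranded RNA, fell in LN319 *TRA2A* KO (-1.05, adjusted p = 0.0239) and rose in A549 DKD (1.90, adjusted p = 0.00917). In A549 DKD 3 of the 23 genes tested from the list of 26 were higher DEGs and 1 a lower one, beside 7.53% and 5.27% of all genes. *SOCS3*, an inhibitor of cytokine signaling that is in another list, rose 1.62 on the log2 scale and *IFI16*, a DNA sensor, 1.81, with *APOL2* also higher and *TDRD7* lower. *HELZ2* and, from the list of sensors, *TICAM1*, both at 1.01, lost the call in 6 and 7 of 14 alternatives. In NCI-H23 DKD 2 of its 20 tested genes were higher DEGs and 1 a lower one, beside 7.08% and 5.74% of all genes. *TRIM25*, a ligase that acts on RIG-I, rose by 1.201 to 55.0 TPM from 21.6 TPM, and *IFI30* fell. *UBA7* had an estimate of 1.92 (adjusted p = 0.0385) and lost the call in 7 of 13 alternatives (adjusted p up to 0.127).

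Among the members with a promoter window, the ISRE-type motif was present in 6 of the 10 DEGs of LN319 *TRA2A* KO and in 12 of 22 (54.5%) of the rest, which include members that fell below the minimum fold change. The GAS-type motif was present in 4 of the 10 DEGs and in 4 of the 22 others (18.2%), and these small counts were not tested. Members of one genomic cluster also differed. In LN319 *TRA2A* KO *OAS1* and *OAS2* were DEGs and *OAS3* between them was not (-0.96), *IFITM1* was and its neighbours *IFITM2* (-0.49) and *IFITM3* (-0.89) were not, and *IFIT1* was while *IFIT5* had an estimate of -0.24. The 21 members that were DEGs in no comparison included *IFIT2*, *IFIT3*, *IFIT5*, *IFI35*, *STAT2*, *IRF1*, *IRF9*, *DDX58*, *IFIH1*, *PARP9*, *PARP14*, *GBP1*, *USP18* and *ADAR*. The remaining 7 were *ISG20*, *IFITM2*, *SAMD9*, *SAMD9L*, *HERC5*, *CMPK2* and *RSAD2*, the last, viperin, at most 7.26 TPM in any LN229 and 6.51 TPM in any LN319 library.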

How the data were processed

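The members were a list of 41 gene symbols, and the role groups, pathway lists and marker lists were written with earlier results of these data known. Per the labels, polyadenylated RNA was made into directional libraries. The authors deposited gene-level TPM values for each cell line, which their methods say came from kallisto and Gencode v34 (hg38); the submitters' processing notes name kallisto 0.48.0 and STAR 2.7.3. TPM keeps no depth, so the number of reads behind a value is unknown, and precision rests on 3 libraries per group. No 2 libraries were identical, and 0 columns were left unused.

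Each line was analyzed by itself in R 4.3.3. Genes below 1 TPM in all but 3 or fewer libraries were dropped, leaving 16405 (A549), 16293 (NCI-H23), 18490 (LN229) and 19303 (LN319). TMM factors without weights (trims 0.3 and 0.05) were used for scaling, 0.1 was added before log2, and limma 3.58.1 (lmFit, eBayes with trend, two-sided) was fitted to all libraries of the line. P was adjusted by Benjamini-Hochberg over all genes of a comparison. The authors' limma-voom needs counts and was not run. With 3 libraries against 3, an exact two-sided permutation test of a single gene cannot go below 0.1 and was not used. The methods were tested on simulated data, where 60.5% to 90% of the planted changes were called per comparison, with 1 to 7 false calls. The simulated noise was independent between genes, whereas the members moved together between libraries. That simulation therefore does not show how reliable the counts of members are.

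Per-library values are given for members called in any comparison (if more than 8, the 8 of largest fold change without overlap) and for *USP18*, *ISG15*, *IFIT1*, *MX1*, *STAT2*, *IRF9*, *DDX58* and *ADAR*. Others given per library or with fits were chosen after their values were seen. Alternatives were other pseudocounts, filters and scalings, fits of only the groups compared, the replicate block, no minimum fold change and each library left out. Motifs and figures were made with Python 3.11.15, pandas 2.3.3, numpy 2.4.6 and matplotlib 3.10.9. Splicing was not analyzed here. Some genes of the pathway and marker lists are not reported here.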

Additional observations from a re-analysis of the deposited data

Results flagged for a closer look

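For 2 members of each lung line, the effect of the double knockdown differed from the sum of the single ones by limma. An adjusted p under 0.05 sufficed here, without the minimum fold change. At that threshold 1 of 32 tested members was higher and 1 lower in A549, beside 5.84% and 8.89% of all genes. Of 21 tested members of NCI-H23, 0 were higher and 2 lower, beside 8.23% and 12.8% of all genes. The members thus did not pass more often than genes did generally. In A549 the difference was -0.81 for *OAS3* (SE 0.22, adjusted p = 0.0306), lower than the single effects add to, and 1.71 for *IRF7* (SE 0.47, adjusted p = 0.0351). In NCI-H23 it was -1.03 for *OAS3* (SE 0.16, adjusted p = 0.00129) and -0.94 for *IFITM3* (SE 0.17, adjusted p = 0.00308). In A549 neither was stable. The *IRF7* difference ran from 1.43 to 2.16 over 18 alternatives, with an adjusted p of 7.11e-04 to 0.0858, and was no longer called in 12 of them. The *OAS3* difference ran from -0.95 without Control KD replicate 3 (adjusted p = 0.00385) to -0.50 with TPM as deposited (adjusted p = 0.241).

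*ISG15* was higher in every *TRA2A/B* DKD library than in every control in A549 (0.89) and lower in every one in NCI-H23 (-2.58). The difference between the cell lines was not tested. All of these libraries were below 3 TPM and 1 was listed at 0.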

How the results depend on the processing

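The signs of the medians in the glioma lines held under every alternative except the LN229 difference between responses and, without Luc Control KO replicate 1, the LN229 TRA2B-OE Control KO. Among values of named genes under alternatives, 520 of 684 kept their side of the threshold, 161 lost the call, 3 gained it and 0 reversed. The cause of any change was not tested. The counts of DEGs below are of members. Unless a share of all genes is given, a changed count cannot be set against the change over all genes.

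For LN319 Luc *TRA2A* KO (14 DEGs) the count was 7 with no filter on low values, 8 where the fit held only the groups compared, 23 with no minimum fold change and 0 to 21 with single libraries left out. For LN319 Luc *TRA2B* KO (5) it was 3 with no filter, 9 with a minimum of 5 TPM, 8 with TPM as deposited, 12 with no minimum fold change and 3 to 14 with libraries left out. For LN319 TRA2B-OE Control KO (2) it was 0 with no filter, 0 with only the groups compared and 0 to 2 with libraries left out. For LN319 TRA2B-OE *TRA2A* KO (0) it was 1 with no minimum fold change and 0 to 1 with libraries left out. For LN229 Luc *TRA2B* KO (0) it was 0 to 22 with libraries left out. Without the LN229 libraries numbered 1, chosen after seeing the data, it was 29, with 3 in Luc *TRA2A* KO and 3 in TRA2B-OE *TRA2A* KO. For NCI-H23 DKD (3) it was 5 with quantile normalization and 2 to 4 with libraries left out.

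For the A549 difference of DKD and single knockdowns (1) the count was 0 with no filter, 0 with a minimum of 5 TPM, 2 with no minimum fold change and 0 to 2 with libraries left out. For NCI-H23 (1) it was 0 with a pseudocount of 0.5 or 1, a minimum of 5 TPM or TPM as deposited, 3 with no filter, 2 with quantile normalization, 2 with no minimum fold change and 0 to 2 with libraries left out.

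The A549 DKD median (0.40) was 0.29 and 0.25 with a pseudocount of 0.5 and 1, 0.48 with TPM as deposited, 0.22 with quantile normalization and 0.27 to 0.52 with libraries left out. With TPM as deposited the medians were -0.23 for A549 *TRA2A* KD, 0.47 for the A549 difference, 0.091 for NCI-H23 *TRA2B* KD and 0.016 for NCI-H23 DKD. With no filter they were 0.27 for A549 *TRA2B* KD and -0.20 for the NCI-H23 difference. With libraries left out they were -0.21 to -0.037 for A549 *TRA2A* KD, 0.077 to 0.25 for *TRA2B* KD, 0.13 to 0.36 for the A549 difference and -0.23 to 0.078 for NCI-H23 DKD. TPM as deposited moved the median of all genes by over 0.1 in several comparisons, by -0.12 in A549 *TRA2A* KD, 0.26 in the A549 difference, 0.12 in LN319 *TRA2B* KO and 0.17 in NCI-H23 DKD. In LN319 *TRA2B* KO, 583 genes were higher and 174 lower DEGs, against 837 and 126 with TPM as deposited and 336 and 333 with quantile normalization, and the members' count was then 8 and 7, all higher.

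Replicate numbers were not taken as pairs, since over all genes the correlations of same-numbered deviations ran from -0.154 to 0.212 and no comparison had all 3 above 0.1. Over the members alone, LN229 libraries numbered 1 stood out, highest of 3 for 25 to 38 members in 4 groups and lowest for 40 in *TRA2B* KO. With the replicate block, DEGs among the members were 13 in LN319 Luc *TRA2A* KO, 2 in LN229 Luc *TRA2B* KO, 1 in LN229 Luc *TRA2A* KO, 1 in LN229 TRA2B-OE *TRA2A* KO and 0 for the A549 difference. The share of all genes with the block is not given beside these counts.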
